A study of Mus musculus with 11 samples.

Results

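The HoxA and HoxB clusters were examined as all C positions of CpG sites between 52145000 and 52265000 of chromosome 6 (HoxA) and between 96190000 and 96372000 of chromosome 11 (HoxB), build GRCm38. Of 1961722 C positions listed in at least 1 library of the series, 2793 lay in these intervals, 1492 in HoxA and 1301 in HoxB. The intervals were cut into consecutive 1000-bp regions, 120 in HoxA and 182 in HoxB. No C position was listed in 50 HoxA and 91 HoxB regions, and regions with fewer than 3 positions common to all libraries of a comparison were not tested. That left 48 HoxA and 60 HoxB regions tested in LSK, and 47 and 58 in GMP.

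Methylation was measured by enhanced reduced representation bisulfite sequencing, which reads cytosines next to cuts of the enzyme MspI, so dense CpG stretches are covered more often than others. Knockout mice (KO) carried a floxed Dnmt3a gene and the Mx1-Cre transgene. Control mice (CTRL) carried the floxed gene without Cre. All were C57BL/6 mice of 12 months that had received 5 injections of poly(I:C), which switches on the Mx1 promoter through interferon in blood cells and in other cells. The sorted cells were LSK (Lin- Sca1+ cKit+, which hold the stem cells; 3 KO and 3 CTRL libraries) and GMP (Lin- Sca1- cKit+ CD34+ FcgR+, granulocyte-macrophage progenitors; 2 KO and 2 CTRL libraries). GMP library 352 has labels that conflict on genotype and is given apart, in no comparison.

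Hox genes encode transcription factors with a DNA-binding homeodomain, and their order along a cluster follows the body axis they pattern. In blood, HoxA and HoxB genes are known to be active in stem and early progenitor cells and to be silenced as cells mature, and Hoxa9 and Hoxb4 are known for promoting self-renewal. Dnmt3a, the gene deleted here, encodes an enzyme that places methyl groups on unmethylated cytosines. CpG-rich starts of Hox genes are commonly free of methylation, with methylated DNA between them.

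Coverage summed over C positions was 157.3 to 181.1 M (1e6) in LSK and 95.4 to 109.7 M in GMP libraries. A read counts in it once at each C position it covers. The median coverage of a C position was 104 reads in LSK in each cluster, and 65 (HoxA) and 63 (HoxB) in GMP. Within Dnmt3a, 5 C positions (chr12:3903653-3904031) were picked because all CTRL libraries and no KO LSK library listed them. For those groups the listing was thus fixed by the choice. KO GMP libraries 178 and 179 still listed 4 and 5 of them. Their coverage there, relative to flanking positions, was 28% and 53.3% of the CTRL GMP mean, so the KO GMP libraries retained part of this segment. Library 352 listed 0 of the 5. LSK libraries 1327 (KO) and 1326 (CTRL) listed 1422 and 1470 positions of the Y chromosome, against 211 to 229 in the other 4 LSK libraries and 1226 to 1326 in GMP. In the 5-Mb windows around the clusters, positions well covered in every library of 1 genotype and listed in none of the other were counted. Per cell type they came to at most 0.205% of the number of positions common to all libraries. Positions listed in only some libraries of a genotype were not counted.

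The sequences below show the stretches before the starts of Hoxa5, Hoxa6 and Hoxb1, the starts at or beside the regions described most. Each is the RefSeq window from 250 bases before to 50 bases after the start (GRCm38.p6), 5′ to 3′ along the gene. Capitals mark the CG whose C was listed in all 6 LSK libraries. The Hoxa5 window is chr6:52204538-52204837 (minus strand), the Hoxa6 window chr6:52208623-52208922 (minus strand) and the Hoxb1 window chr11:96365508-96365807 (plus strand).

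Hoxa5: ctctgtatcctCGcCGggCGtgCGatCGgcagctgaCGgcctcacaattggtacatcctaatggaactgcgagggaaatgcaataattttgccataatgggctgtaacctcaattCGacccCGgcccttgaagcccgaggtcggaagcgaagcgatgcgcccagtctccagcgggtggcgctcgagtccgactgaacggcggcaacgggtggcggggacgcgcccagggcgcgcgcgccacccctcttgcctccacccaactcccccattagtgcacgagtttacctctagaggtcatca
Hoxa6: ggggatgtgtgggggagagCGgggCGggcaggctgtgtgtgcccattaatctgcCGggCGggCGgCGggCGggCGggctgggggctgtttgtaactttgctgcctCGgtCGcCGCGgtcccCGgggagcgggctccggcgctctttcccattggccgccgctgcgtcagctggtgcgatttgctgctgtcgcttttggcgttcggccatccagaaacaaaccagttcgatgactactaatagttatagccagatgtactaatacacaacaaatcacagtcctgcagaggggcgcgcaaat
Hoxb1: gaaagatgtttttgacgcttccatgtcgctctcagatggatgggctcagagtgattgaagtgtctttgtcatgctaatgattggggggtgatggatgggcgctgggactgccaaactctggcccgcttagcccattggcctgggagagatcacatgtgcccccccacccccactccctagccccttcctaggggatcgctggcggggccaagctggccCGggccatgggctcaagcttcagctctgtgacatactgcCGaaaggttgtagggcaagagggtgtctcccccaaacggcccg

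The Hoxa5 window holds 29 CG and the Hoxa6 window 26, against a median of 7 over 32851 RefSeq windows of the same length, of which 94.6% hold at least 1 CG. The Hoxb1 window holds 10. Only the capitals carry data here: 8 CG at Hoxa5, 13 at Hoxa6 and 2 at Hoxb1.

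Both clusters were less methylated in KO than in CTRL libraries. Over the 1210 HoxA positions common to the 6 LSK libraries, the mean level was 11.7% (library 1327), 10.6% (1333) and 9.73% (1334) in KO LSK, against 16.0% (1326), 14.6% (1330) and 15.3% (1331) in CTRL LSK. No KO library reached the lowest CTRL library, and the means were 10.7% ± 0.988 in KO LSK and 15.3% ± 0.727 in CTRL LSK (SD, n = 3 each), a difference of -4.63 points. Over 1067 HoxB positions the mean was 15.6% ± 0.514 in KO LSK and 18.3% ± 0.157 in CTRL LSK (SD, n = 3 each), a difference of -2.71 points, again without overlap. Over all 1403302 common positions of the genome it was 32.4% ± 0.113 in KO LSK and 33.4% ± 0.134 in CTRL LSK (SD, n = 3 each), a difference of -0.98 points.

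In GMP the HoxA mean was 15.1% (178) and 16.6% (179) in KO, against 17.9% (346) and 18.1% (349) in CTRL, and library 352 was at 11.9%. The HoxB mean was 16.3% (178) and 17.2% (179) in KO GMP, against 19.1% (346) and 18.6% (349) in CTRL GMP, and 14.8% in library 352. Groups did not overlap in either cluster, and library 352 lay below the KO GMP libraries in each. The differences were -2.12 points in HoxA and -2.13 points in HoxB, beside -0.798 points over the genome's 1367750 common positions.

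**Figure D1:**
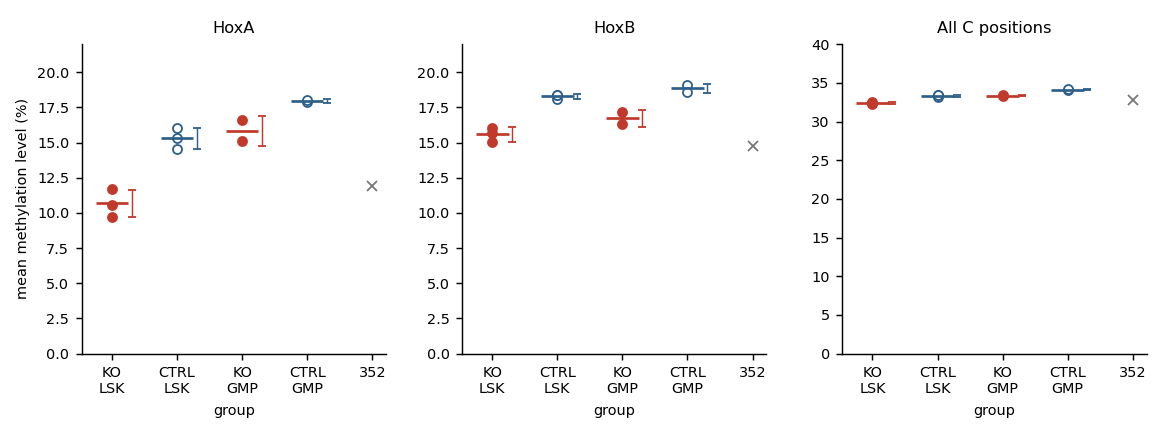
Mean methylation level (%) over C positions common to the libraries of a cell type, in HoxA, HoxB and all listed positions; each point is a library, horizontal lines are group means and error bars are SD. KO LSK libraries sit between 9.73% and 11.7% in HoxA, below the CTRL LSK libraries at 14.6% to 16.0%, and library 352 is at 11.9%.

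Levels along the clusters were uneven. In CTRL LSK, 33 of the 48 HoxA regions and 36 of the 60 HoxB regions were under 10%, 10 and 15 were at 10% to 80%, and 5 and 9 were at 80% or above. In HoxA, 28 of the 29 regions tested from chr6:52210001 to the end of the interval were under 10% in CTRL LSK. That stretch holds the starts of Hoxa3, Hoxa7, Hoxa9, Hoxa10, Hoxa11 and Hoxa13, and 0 of its regions reached an adjusted p under 0.05 in LSK. Its border was set after these values were seen. The methylated regions of HoxA lay mainly before that border, among them regions in the lncRNA gene Hotairm1 and upstream of Hoxa6. Many lay in the long span of Hoxa3, with a low stretch at Hoxa4. The highest tested HoxA region in CTRL LSK was chr6:52168001-52169000 in the lncRNA gene Hoxaas2, at 90.4% ± 1.78 in KO LSK and 94.1% ± 2.43 in CTRL LSK (SD, n = 3 each). The lowest HoxA region, at Hoxa7, was at 0.0565% in KO LSK and 0% in CTRL LSK.

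HoxB had a low stretch as well: from the Hoxb8 start to the Hoxb4 start, 17 of 18 tested regions were under 10% in CTRL LSK. The span of Hoxb3 after Hoxb4 was methylated, with CTRL LSK levels of 6.95% to 95.6% in its 9 tested regions. The pooled KO LSK level was below the CTRL LSK level in 9 of the 9. That held in 46 of 60 tested HoxB regions and in 61.7% of all regions tested in the genome. Both HoxB stretches were picked after their values were seen, so these counts describe them and are no further support. The highest HoxB region in CTRL LSK, in the pseudogene Gm11539, was at 95.5% ± 2.4 in KO LSK and 96.0% ± 1.22 in CTRL LSK (SD, n = 3 each). The lowest, in the lncRNA gene Gm53, was at 0.75% in KO LSK and 0% in CTRL LSK.

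**Figure D2:**
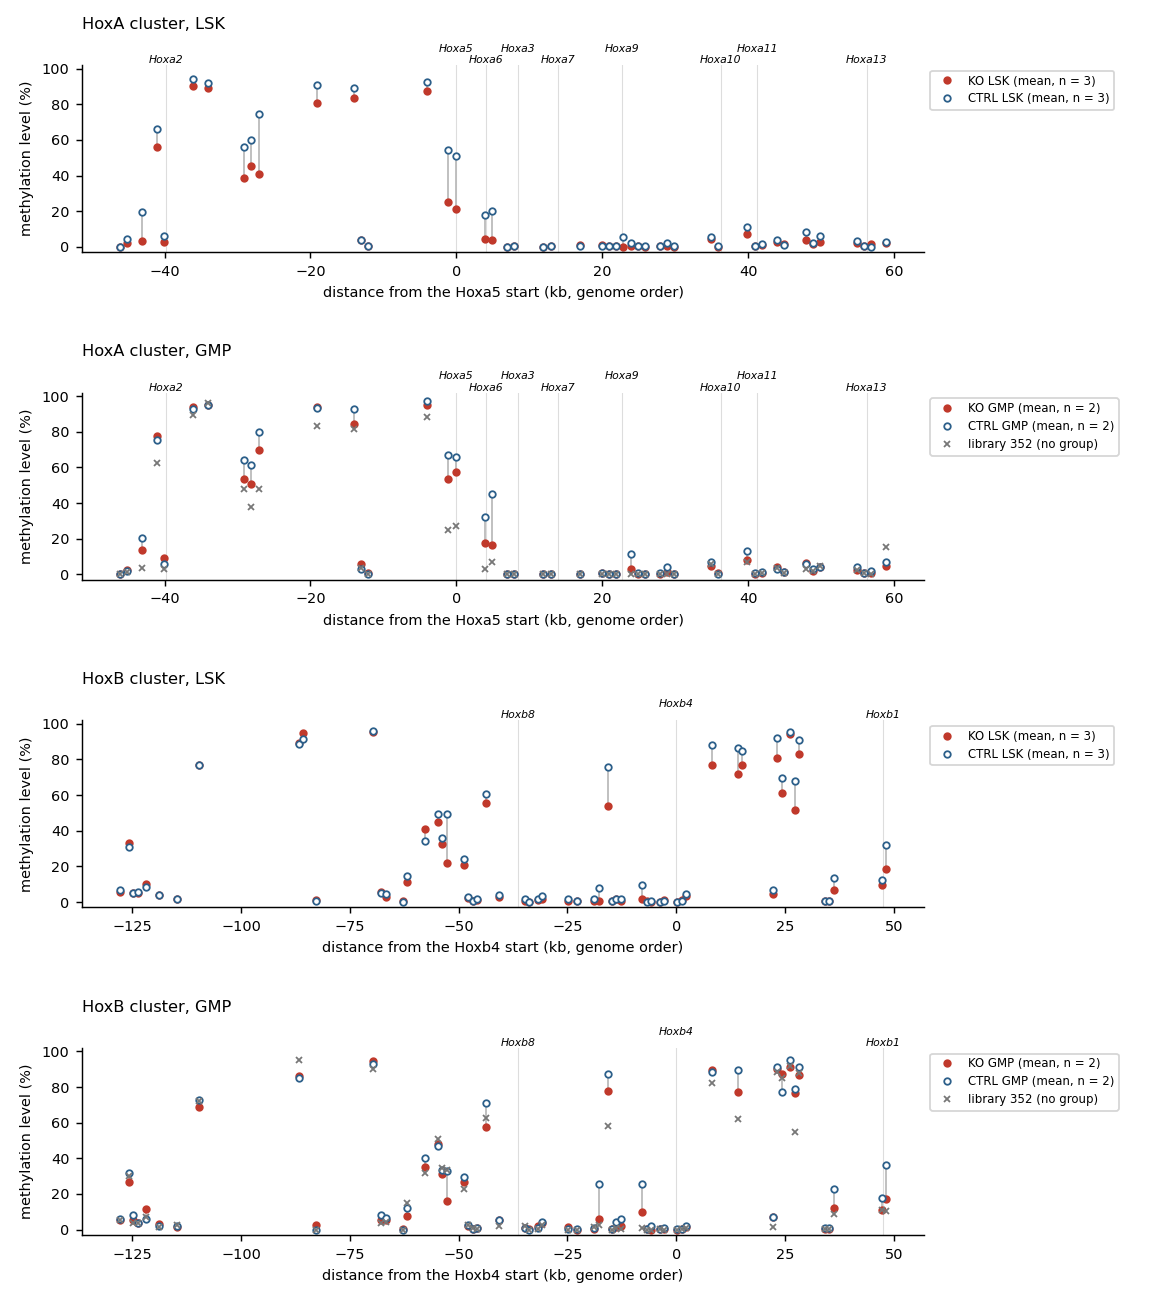
Mean methylation level (%) of each tested 1000-bp region against its distance (kb) from the Hoxa5 or Hoxb4 start, in genome order, for KO (filled) and CTRL (open) libraries of LSK and GMP; crosses are library 352 and grey lines join the group means. Wide gaps lie at Hoxa5, where KO LSK means of 25.2% and 21.4% stand against CTRL LSK means of 54.3% and 50.8%.

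The tests used a quasi-binomial model of methylated and unmethylated reads per region over the whole genome, with spread moderated by limma and Benjamini-Hochberg adjustment. A region was called at an adjusted p under 0.05 together with pooled levels 20 or more points apart. In KO LSK, 2 of 48 HoxA regions and 0 of 60 HoxB regions fell by this rule, against 0.871% of all 107074 regions, and 0 rose. At an adjusted p under 0.05 with any size, 6 HoxA and 5 HoxB regions were lower in KO LSK, against 2.35% of all regions, and 0 were higher. These smaller differences were picked for description after their values were seen. The median difference was -0.99 points in HoxA, -0.76 in HoxB and -0.37 over all regions tested. In the HoxC and HoxD clusters it was -1.24 and -1.40 points, so the median loss was not particular to HoxA and HoxB. Every KO LSK library lay below every CTRL LSK library in 16 of 48 HoxA and 19 of 60 HoxB regions, against 15% of all regions.

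Counts at this group size turned on single libraries. The HoxA count of 2 was 0 without CTRL LSK library 1326, 0 without CTRL LSK library 1331 and 0 without KO LSK library 1334. The HoxB count of 0 was 3 without KO LSK library 1327. With only the 4 LSK libraries that list few Y positions, 2 HoxA regions and 1 HoxB region fell, and at any size 6 and 2 were lower.

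The called regions adjoin each other at Hoxa5, a regulator of lung and airway development that is also expressed in blood progenitors. The region chr6:52204001-52205000 holds the Hoxa5 start, with 75 C positions, and touches Hoxa6, Hoxa3 and the antisense lncRNA gene Hoxaas3. Its level was 28.9%, 16.4% and 18.9% in KO LSK libraries 1327, 1333 and 1334, against 56.8%, 41.9% and 53.6% in CTRL LSK libraries 1326, 1330 and 1331. All KO libraries were below all CTRL libraries, by -29.6 points in pooled level (adjusted p = 0.00831, quasi-binomial test with limma; 21.4% ± 6.65 in KO and 50.8% ± 7.87 in CTRL, SD, n = 3 each).

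The neighbouring region chr6:52203001-52204000, within the spans of Hoxa5, Hoxa3 and Hoxaas3, holds 19 C positions. Its level was 21.5%, 33.0% and 21.1% in KO LSK, against 62.8%, 48.0% and 52.3% in CTRL LSK, with no overlap. The difference was -29.5 points (adjusted p = 0.0099, quasi-binomial test with limma). It was -23.4 points with an adjusted p of 0.0977 among the 4 libraries with few Y positions. Over all alternatives its adjusted p ran from 2.84e-235 to 0.321. The low end is from Fisher's exact test on reads pooled over libraries, which ignores the spread between libraries.

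Single positions show the same stretch in detail. In the region with the Hoxa5 start, all 3 KO LSK libraries lay below all 3 CTRL LSK libraries at 46 of 75 positions, and at 14 of 19 positions in its neighbour, against 5.16% of all positions. These regions are shown because they were called, so the counts describe them and are no further support. The median position had a mean of 18.8% in KO LSK and 49.8% in CTRL LSK in the first of these regions, and 28.1% in KO LSK and 57.3% in CTRL LSK in the second. The 8 listed CG of the printed Hoxa5 sequence lie before the start. Over them the level was 44.4%, 27.4% and 27.9% in KO LSK, against 70.6%, 54.4% and 72.8% in CTRL LSK. Of these 8, the 6 from -239 to -214 bases had every KO LSK library below every CTRL LSK library. The pair at -135 and -129 bases overlapped between the genotypes.

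Hoxa6, the next gene, had lower KO levels within the gene and farther upstream. The region chr6:52208001-52209000, which holds the Hoxa6 start, was at 5.6%, 4.6% and 3.1% in KO LSK, against 18.5%, 17.1% and 18.2% in CTRL LSK. The groups were far apart relative to their spread, at -13.6 points (adjusted p = 0.000685, quasi-binomial test with limma). Region chr6:52209001-52210000, upstream of that start and within Hoxa3 and Hoxaas3, was at 5.0%, 2.9% and 2.9% in KO LSK, against 22.4%, 17.2% and 20.3% in CTRL LSK (-16.0 points, adjusted p = 0.00258, quasi-binomial test with limma). Across the 13 listed CG of the printed Hoxa6 sequence, levels were at 0.0501% to 0.389% in KO LSK and 0.776% to 1.05% in CTRL LSK. These listed CG were thus near 0 in each genotype, and the larger differences sat at positions within the gene and farther upstream. The listed CG nearest to the Hoxa6 start lies at -129 bases. Between it and the start no CG was listed in all LSK libraries, so the stretch right before the start was not measured.

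**Figure D3:**
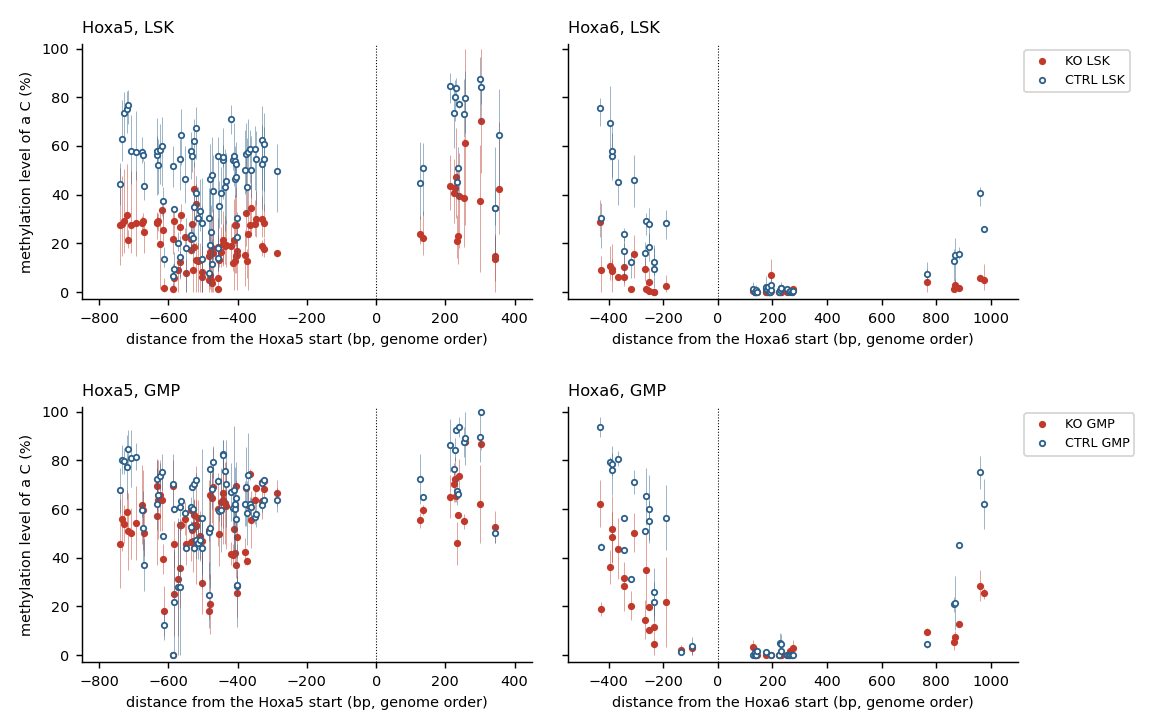
Methylation level (%) of single C positions around the Hoxa5 and Hoxa6 starts (dotted lines; both genes run leftward) in LSK (top) and GMP (bottom); points are KO (filled) and CTRL (open) means and bars span the lowest to the highest library. In LSK the KO points lie mostly below the CTRL points on both sides of the Hoxa5 start. At Hoxa6 at 396 bases into the gene KO is at 10.5% and CTRL at 69.3%. The listed CG of the printed Hoxa6 sequence, the nearest at -129 bases from the start, are near 0% in each genotype.

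No single C position reached an adjusted p under 0.05 with 25 points in the quasi-binomial test with the prior of all positions, in either cluster or in the genome, although 151 of 1210 HoxA and 103 of 1067 HoxB positions had an unadjusted p under 0.05, beside 71469 of 1403302 over the genome. With a prior for the spread fitted only on positions at 5% to 95% (the intermediate-level prior), 18 HoxA positions and 1 HoxB position were lower in KO LSK, against 0.141% of all 1403302 positions, and 0 were higher. Of the 18, 8 were nearest, among the starts that RefSeq gives here, to the Hoxa6 start, 6 to the Hoxa5 start and 3 to the start of the lncRNA gene 5730596B20Rik. At Hoxa6, 7 of the 8 lie 253 to 433 bases into the gene. The position 396 bases in had 10.5% in KO LSK and 69.3% in CTRL LSK (adjusted p = 0.0029, quasi-binomial test with limma and this prior). At Hoxa5 the position 716 bases in had 21.2% in KO LSK and 76.8% in CTRL LSK (adjusted p = 0.0029, same test).

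Farther along HoxA, region chr6:52161001-52162000 lies in Hotairm1, a lncRNA gene beside Hoxa2 that is known from human myeloid cells. It was at 3.1%, 3.8% and 2.7% in KO LSK, against 15.0%, 23.4% and 20.2% in CTRL LSK. KO LSK was nearly unmethylated there, -16.7 points from CTRL LSK (adjusted p = 0.0023, quasi-binomial test with limma). Within Hoxa3, known for patterning the pharyngeal glands, region chr6:52175001-52176000 was at 41.1%, 39.2% and 35.9% in KO LSK, against 61.0%, 52.3% and 55.4% in CTRL LSK (-17.9 points, adjusted p = 0.00501, quasi-binomial test with limma).

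The largest difference of either cluster was not called. Region chr6:52177001-52178000, at the start of 5730596B20Rik within Hoxa3, was at 61.5%, 33.3% and 27.2% in KO LSK, against 75.3%, 71.4% and 76.6% in CTRL LSK. KO library 1327 stood closer to the CTRL libraries than to the other KO libraries. The difference was -32.8 points with an adjusted p of 0.105 (quasi-binomial test with limma). It was -44.2 points with an adjusted p of 0.0187 among the 4 libraries with few Y positions, a set that leaves out 1327, and over all alternatives the adjusted p ran from 1.41e-176 to 0.526.

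In HoxB, 3 of the 5 regions at an adjusted p under 0.05 lie in the span of Hoxb3, a gene expressed in blood stem cells. Region chr11:96332001-96333000 was at 68.7%, 76.0% and 70.8% in KO LSK, against 84.9%, 85.1% and 88.7% in CTRL LSK (-14.2 points, adjusted p = 0.00769, quasi-binomial test with limma). Region chr11:96341001-96342000 was at 82.0%, 78.0% and 82.0% in KO LSK, against 93.3%, 89.2% and 93.9% in CTRL LSK (-11.3 points, adjusted p = 0.0202). Both are mostly methylated in each genotype, and the groups did not overlap. Region chr11:96310001-96311000, before the Hoxb4 start, was low in each genotype, at 2.7%, 2.0% and 0.577% in KO LSK, against 13.1%, 7.0% and 9.3% in CTRL LSK (-7.87 points, adjusted p = 0.0188).

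The other 2 lie in Hoxb6 and Hoxb1. Region chr11:96300001-96301000, in the spans of Hoxb6 and the antisense lncRNA gene Hoxb5os, was at 1.7%, 0.182% and 0.189% in KO LSK, against 9.9%, 8.7% and 5.1% in CTRL LSK (-7.22 points, adjusted p = 0.0172, quasi-binomial test with limma). Region chr11:96366001-96367000 lies in Hoxb1, a gene that patterns the hindbrain, downstream of the printed start. It was at 20.7%, 20.03% and 14.8% in KO LSK, against 29.1%, 37.6% and 28.9% in CTRL LSK (-13.2 points, adjusted p = 0.0292). Groups were apart in all 5 HoxB regions, against 15% of all regions. These 5 were picked by adjusted p in the same libraries, so this describes them and is no further support. None of the 5 kept an adjusted p under 0.05 among the 4 libraries with few Y positions, where their differences were -15.9 to -6.68 points.

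**Figure D4:**
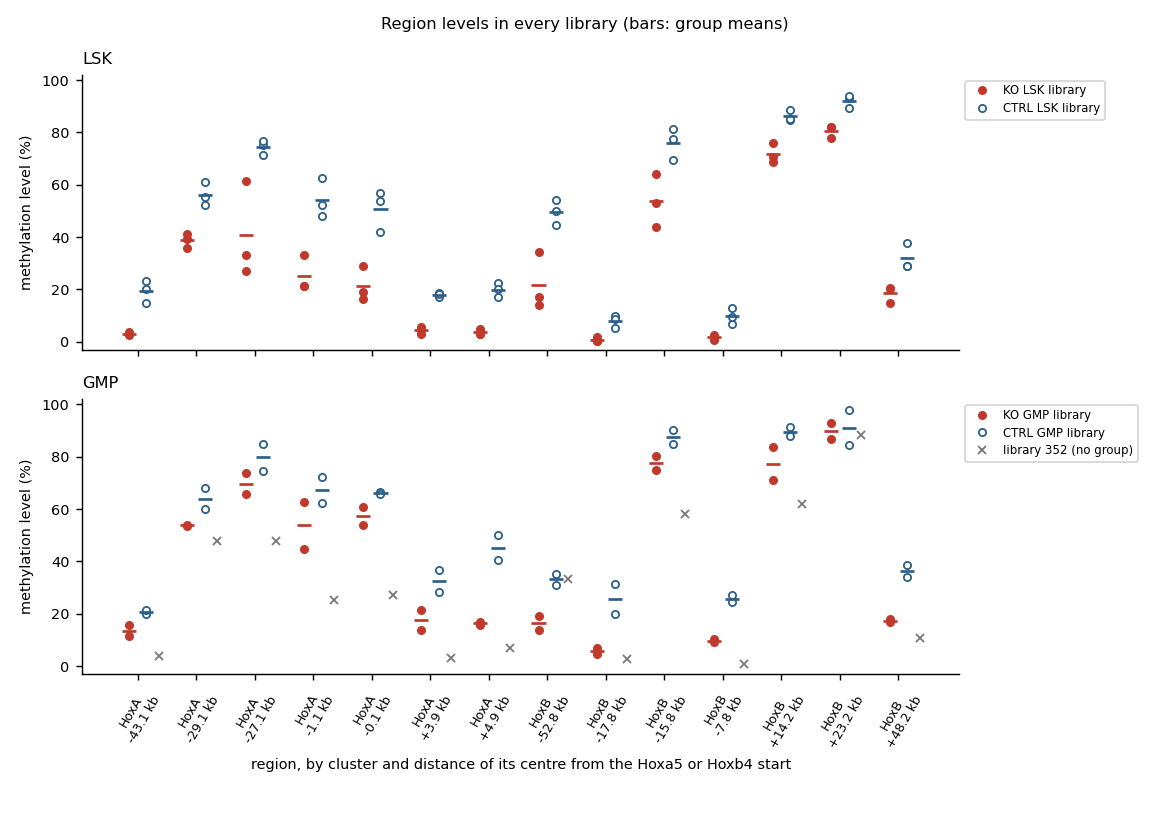
Methylation level (%) of the 11 regions at an adjusted p under 0.05 in LSK and of 3 regions with large differences that missed it, by library in LSK (top) and GMP (bottom); points are libraries, bars group means and crosses library 352, and regions are named by cluster and distance from the Hoxa5 or Hoxb4 start. In LSK every KO library lies below every CTRL library in each of these regions, which were picked by their differences in the same libraries.

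Of the largest HoxB losses in LSK, none was called. Region chr11:96265001-96266000 holds Mir196a-1 and only 3 C positions, whose coverage summed to a mean of 58 per library. It was at 34.5%, 14.0% and 17.0% in KO LSK, against 54.2%, 50.0% and 44.6% in CTRL LSK (-24.9 points, adjusted p = 0.131, quasi-binomial test with limma). Region chr11:96302001-96303000 in Hoxb5os was at 53.7% ± 10.02 in KO LSK and 76.0% ± 6.04 in CTRL LSK (SD, n = 3 each; -21.3 points, adjusted p = 0.0822). Region chr11:96345001-96346000, in Hoxb3 and Hoxb3os, was at 51.5% ± 8.13 in KO LSK and 68.1% ± 4.54 in CTRL LSK (SD, n = 3 each; -15.8 points, adjusted p = 0.0817). Its adjusted p was 0.0401 among the 4 libraries with few Y positions and ran from 2.5e-99 to 0.485 over all alternatives.

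Mir196a-1 has a relative in HoxA, Mir196b, and the mature products of the pair are shown because their host regions differed in level. They are known to act on Hox messages, Hoxb8 among them. They share the seed (bases 2 to 8, in capitals) and differ by the substitution A12C, counted from the 5′ end of miR-196a-5p.

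miR-196a-5p: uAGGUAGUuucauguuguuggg
miR-196b-5p: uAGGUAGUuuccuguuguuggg

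The Mir196b region, chr6:52230001-52231000, was at 0.194% ± 0.121 in KO LSK and 0.409% ± 0.245 in CTRL LSK (SD, n = 3 each), against 21.8% ± 11.1 and 49.6% ± 4.77 at Mir196a-1. In GMP the Mir196a-1 region was at 13.6% and 19.0% in KO, against 31.1% and 35.1% in CTRL (-16.5 points, adjusted p = 0.568). The region of Mir10a, the remaining miRNA of the intervals, had too few C positions to be tested.

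Gains were small. The largest was +6.46 points at chr11:96260001-96261000, in the lncRNA gene Gm53, with 43.6%, 39.8% and 38.9% in KO LSK against 36.3%, 37.1% and 29.3% in CTRL LSK. KO libraries were above CTRL libraries, but the adjusted p was 0.375 (quasi-binomial test with limma). The others of the 3 largest HoxB gains in LSK were +3.04 points between Hoxb13 and Hoxb9 and +2.29 at Hoxb13, and those of HoxA were +0.76, +0.87 and +1.64 points, in regions whose group means were under 2% in LSK.

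In GMP the test called 0 regions in HoxA, in HoxB and in the genome (0% of 107150), where 25 Hox regions and 9338 of all regions had an unadjusted p under 0.05. With the intermediate-level prior, 1 of 47 HoxA and 0 of 58 HoxB regions fell in KO GMP by 20 points or more, against 0.248% of all regions. At any size, 1 HoxA and 3 HoxB regions had an adjusted p under 0.05, all lower in KO GMP, against 0.368% of all regions that differed in either direction. The median difference was -0.16 points in HoxA, -0.47 in HoxB and -0.35 over all regions, beside -0.75 in HoxC and -0.87 in HoxD. Every KO GMP library lay below every CTRL GMP library in 17 of 47 HoxA and 16 of 58 HoxB regions, against 25.9% of all regions.

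The HoxA region that fell was chr6:52209001-52210000, upstream of Hoxa6. It was at 15.6% (178) and 17.0% (179) in KO GMP, against 50.0% (346) and 40.5% (349) in CTRL GMP. The difference was -28.6 points (adjusted p = 0.00438 with the intermediate-level prior and 0.567 with the prior of all regions), larger than in LSK, where CTRL levels were lower. Library 352 was at 7.0%, below the KO GMP libraries.

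The 3 HoxB regions were those in Hoxb6, Hoxb3 and Hoxb1. The Hoxb6 region chr11:96300001-96301000 was at 7.1% and 4.7% in KO GMP, against 31.4% and 19.8% in CTRL GMP (-19.3 points, adjusted p = 0.00909 with the intermediate-level prior), and at 2.6% in library 352. The Hoxb1 region chr11:96366001-96367000 was at 18.0% and 16.8% in KO GMP, against 38.6% and 34.2% in CTRL GMP (-18.8 points, adjusted p = 0.011, same prior), and at 10.5% in library 352. The Hoxb3 region chr11:96310001-96311000 was at 9.07% and 10.35% in KO GMP, against 24.4% and 27.2% in CTRL GMP (-16.0 points, adjusted p = 0.0316, same prior), and at 0.726% in library 352. KO GMP levels in these regions lay above KO LSK levels in Hoxb6 and Hoxb3 and beside them in Hoxb1. Whether the retained Dnmt3a segment in the KO GMP libraries has a part in any GMP level was not tested.

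The largest GMP gain was +10.9 points at chr11:96342001-96343000 in Hoxb3, with 87.1% and 87.9% in KO GMP against 85.3% and 68.8% in CTRL GMP (adjusted p = 0.618, quasi-binomial test with limma). CTRL GMP library 349 was the low one there. In HoxA the largest gain was +3.77 points at the Hoxa2 start (adjusted p = 0.649).

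At Hoxa5 the GMP groups were closer. The region with the start was at 54.1% and 60.6% in KO GMP, against 66.3% and 65.6% in CTRL GMP (-8.42 points, adjusted p = 0.567), and its neighbour at 44.9% and 62.6% in KO GMP, against 62.1% and 72.3% in CTRL GMP (-12.6 points, adjusted p = 0.638). The groups overlapped in the second of these, and its difference was -5.13 points without KO library 178, -22.8 without KO library 179 and -7.00 without CTRL library 349. Library 352 was at 27.1% and 25.1%, below each KO GMP library. Over the printed Hoxa5 sequence the level was 68.8% and 58.7% in KO GMP, against 81.7% and 74.8% in CTRL GMP, and 33.5% in library 352.

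**Figure D5:**
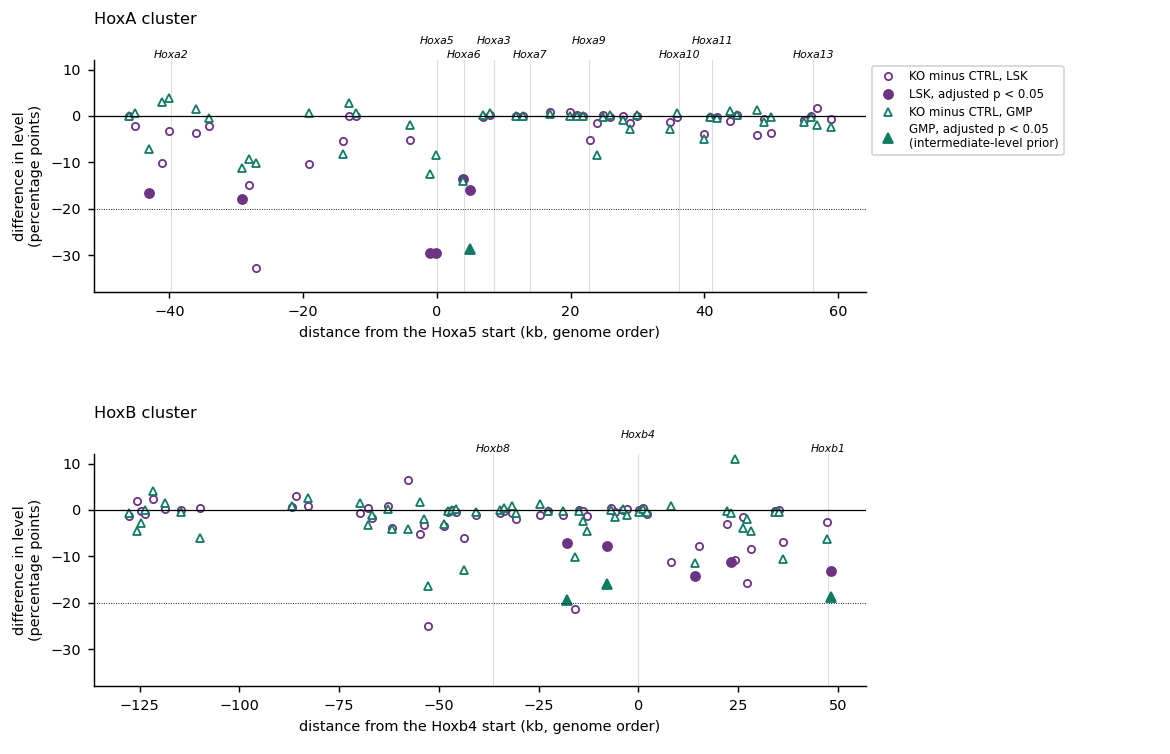
KO minus CTRL difference in pooled methylation level (percentage points) of each tested region against distance (kb) from the Hoxa5 or Hoxb4 start, for LSK (circles) and GMP (triangles); filled symbols have an adjusted p under 0.05 (in GMP with the intermediate-level prior) and the dotted line marks -20 points. Losses reach -29.6 and -29.5 points at Hoxa5 in LSK, and -28.6 points upstream of Hoxa6 in GMP.

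Whether the genotype difference itself differed between LSK and GMP was tested by an interaction term over the 10 assigned libraries. The term was tested on the log-odds scale of the model, which need not rank differences as points do. It reached an adjusted p under 0.05 in 0 of 105 Hox regions. Of all 100150 regions, 2 reached it with the GMP difference in points below the LSK difference and 4 with it above. With 20 points required as well, it was 0 of 105 Hox regions, against 0.003% of all regions. At an unadjusted p under 0.05 there were 9 of the 105, beside 5702 of the 100150. At the Hoxa5 start, with differences of -29.6 points in LSK and -8.42 in GMP, the adjusted interaction p was 0.777 (quasi-binomial test with limma). Upstream of Hoxa6, with -16.0 and -28.6 points, it was 0.927 (same test). These p-values are for the log-odds term and do not compare the differences in points.

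Within controls, GMP was compared with LSK, a comparison that shares the CTRL libraries with those above and in which the Y positions differ as described. In HoxA 1 region was higher in CTRL GMP by the 20-point rule, against 0.113% of 104839 regions, and in HoxB 0, while 0 were lower in either. It was the region upstream of Hoxa6, with 50.0% and 40.5% in CTRL GMP and 22.4%, 17.2% and 20.3% in CTRL LSK (+25.2 points, adjusted p = 0.014, quasi-binomial test with limma). At any size 3 HoxA and 3 HoxB regions were higher in CTRL GMP, against 0.314% of all regions. The further HoxA regions were the one at the Hoxa6 start (+14.2 points, adjusted p = 0.0156) and chr6:52228001-52229000 in the lncRNA gene Gm52902 beside Hoxa9 (+9.8 points, adjusted p = 0.0123). The HoxB regions were those in Hoxb6 (+17.2 points, adjusted p = 0.0438) and Hoxb3 (+16.1 points, adjusted p = 0.0482), and chr11:96354001-96355000 at the end of Hoxb2 (+9.22 points, adjusted p = 0.0285). The HoxA count of 1 was 0 without CTRL GMP library 346, without 349, without CTRL LSK library 1330 and without 1331, and both counts of 3 were at most 1 without any of the 5 CTRL libraries.

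Regions were also sorted by the control level in the other cell type, so that the sorting did not use the libraries compared. Among regions at 10% to 80% in CTRL GMP, the KO minus CTRL difference in LSK was below 0 in 10 of 10 HoxA regions (median -15.7 points) and 13 of 16 HoxB regions (median -5.67), against 12271 of 16100 over the genome (median -3.80). Among regions under 10% in CTRL GMP, the medians were -0.0935 in HoxA, -0.245 in HoxB and -0.0263 over the genome. Among regions at 10% to 80% in CTRL LSK, the difference in GMP was below 0 in 9 of 10 HoxA and 13 of 15 HoxB regions, with medians of -9.68 and -4.54, against 10824 of 16271 and -2.42 over the genome.

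Gene by gene, windows of 1000 bp either side of a gene's start or end were tested for 17 of the 21 Hox genes in each cell type, and called at 10 points. For 9 of the 17, Hoxa5 and Hoxa6 among them, the window was centred on a RefSeq start. For the other 8, whose start and strand the reference tables used do not give, it was centred on the end of the gene span with more listed C positions, which need not be the start. In KO LSK 2 fell, against 0.788% of 18525 windows: Hoxa5, at 22.2% ± 4.5 in KO and 51.6% ± 7.5 in CTRL, and Hoxa6, at 4.3% ± 1.2 in KO and 18.2% ± 0.98 in CTRL (SD, n = 3 each). Their adjusted p were 0.0136 and 0.00301 (quasi-binomial test with limma), and 0.0889 and 0.025 with the intermediate-level prior. The Hoxa5 call was lost without CTRL LSK library 1326 or 1331, without KO LSK library 1333 or 1334, and in 500-bp windows, with adjusted p of 0.00759 to 0.09 over its 8 alternatives. The Hoxa6 call was lost in 0 of 8. In each cell type the Hoxa5 window holds the same tested C positions as the regions called at Hoxa5 in LSK. The Hoxa6 window holds those of the regions at and upstream of the Hoxa6 start. These window calls thus re-read the same data and are no further support.

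The windows of the other genes differed less. Hoxa9, whose product is a partner of Meis1 in stem cell self-renewal, had 1.17%, 0% and 0% in KO LSK, against 5.79%, 5.71% and 5.11% in CTRL LSK over 5 positions (adjusted p = 0.104). Hoxb6, with its window at the 96301569 end of its span, was at 12.0% ± 3.5 in KO LSK and 19.9% ± 1.2 in CTRL LSK (SD, n = 3 each; adjusted p = 0.15). Hoxb4, known for expanding stem cells, was at 0.693% in KO LSK and 0.455% in CTRL LSK, and Hoxa10, at 0.188% and 0.294%, was equally unmethylated. The central and posterior genes Hoxa11 and Hoxa13 and, at the chosen span end, the HoxB genes Hoxb5, Hoxb7 and Hoxb9 were under 2% in the mean of either genotype. Hoxa2, Hoxa4, Hoxb1, Hoxb2 and Hoxb13 (for Hoxa4, Hoxb2 and Hoxb13 at the chosen span end) were at 3.01% to 6.63% in KO LSK and 3.61% to 8.36% in CTRL LSK, with no adjusted p under 0.05. In LSK the windows of Hoxa3, Hoxa7, Hoxb3 and Hoxb8 held too few positions, and in GMP those of Hoxa7, Hoxa9, Hoxb3 and Hoxb8.

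In GMP 0 windows passed the test in the genome, with 6 of the 17 Hox windows and 1633 of 18526 windows at an unadjusted p under 0.05. With the intermediate-level prior 1 Hox window fell, against 0.281% of all windows: Hoxa6, with 14.2% and 20.5% in KO GMP and 39.4% and 30.7% in CTRL GMP (-17.0 points, adjusted p = 0.0064). Hoxb2, which patterns the hindbrain with Hoxb1, was read at the 96354020 end of its span, the far end if it runs as the HoxB genes with a RefSeq start do. It had 4.18% and 5.65% in KO GMP and 13.1% and 10.95% in CTRL GMP, a difference under 10 points (-6.98, adjusted p = 0.00869, same prior). With 500 bp either side the Hoxb2 difference was -0.39 points (adjusted p = 0.788, against 0.00869 to 0.839 over its alternatives). Hoxa5 was at 52.2% and 61.1% in KO GMP and 65.3% and 67.4% in CTRL GMP (-9.40 points, adjusted p = 0.175, same prior), and its difference was -5.33 points without KO GMP library 178 and -14.2 without KO GMP library 179.

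Windows of the same kind at 22 genes whose products work with or control Hox genes were read alongside, among them the cofactors Meis1, Meis2, Meis3, Pbx2, Pbx3 and Pbx4, the activators Kmt2a, Men1, Dot1l and Psip1, the Polycomb proteins Ezh2, Eed, Suz12, Bmi1 and Cbx7, the demethylases Kdm6a and Kdm6b, Cdx1, Cdx2, Cdx4, and Ctcf. For 17 of the 22 the window was at a RefSeq start, and for 5, Cdx1 and Kdm6b among them, at the span end with more listed positions. In KO LSK 2 of the 22 fell, against 0.788% of 18525 windows, and 0 rose. Cdx1, a direct activator of Hox genes in the embryo, was at 11.4% ± 0.76 in KO and 22.4% ± 2.9 in CTRL (SD, n = 3 each; adjusted p = 0.00589, quasi-binomial test with limma). Kdm6b, a histone demethylase, was at 44.3% ± 2.7 in KO and 55.8% ± 3.4 in CTRL (SD, n = 3 each; adjusted p = 0.0466). With the intermediate-level prior neither had an adjusted p under 0.05 in LSK (0.0889 and 0.286). In GMP with that prior 1 of the 22 fell, against 0.281% of all windows. It was Cdx1, with 16.9% and 18.9% in KO and 27.8% and 28.6% in CTRL (adjusted p = 0.0137, quasi-binomial test with limma). Of the other genes named here, Cdx4 ranged from 6.86% to 37.0% over the LSK libraries and the rest were under 2% in each LSK group mean.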

How the data were processed

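Libraries were sorted LSK and GMP cells sequenced by enhanced reduced representation bisulfite sequencing. Each deposited file gives, per the file headers, a coverage (read count) at every C position, and what percent of those reads kept C (methylated) or became T. Bismark and mm10/GRCm38 are named in the submitters' processing notes, without versions. All listed positions had a coverage of at least 10, and coverage times percent gave whole reads at 100% of positions.

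Methylated and unmethylated reads were summed per 1000-bp region over positions common to all libraries of a comparison (at least 3). A quasi-binomial model with spread moderated by limma 3.58.1 (R 4.3.3) was fitted over the whole genome, with Benjamini-Hochberg adjustment. It was also run on simulated data, with losses set only in regions of high control level and a smaller required difference. That check does not cover regions of low level, such as those at Hoxa6. Prior degrees of freedom were 5.21 in LSK and 1.92 in GMP; the intermediate-level prior used features at 5% to 95%. Gene windows (1000 bp either side, at least 5 positions) were centred on the RefSeq start or, where the tables give no start, on the end of the gene span with more listed C positions.

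Regions named were those called, those at an adjusted p under 0.05, the 3 largest losses and gains per cluster and the extremes of control level. The members and lists were chosen with earlier results of these data known, so no p is printed for cluster means. Nothing in the labels ties a library to an animal of its own, so p-values measure the spread between libraries, which may be technical. Reads carry no molecular identifiers. Gene spans and sequences are from RefSeq (GRCm38.p6), which here gives no exons. Values of some genes are not reported here.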

Additional observations from a re-analysis of the deposited data

How the results depend on the processing

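Counts of regions depended on the test. Without moderation, and with limma on logit levels, the HoxA count in KO LSK was 0, the counts at any size were 0 in HoxA and 0 in HoxB, and the control GMP against LSK counts were 0, 0 and 0. Reads pooled over libraries and tested by Fisher's exact test, without any spread between libraries, gave 2 HoxB regions, 28 HoxA and 30 HoxB at any size, 1 HoxA region in GMP, and 18 and 19 between control cell types. Allowing 1 position gave 1 HoxB region at any size, and 0, 1 and 0 between control cell types. Moving borders by 500 bp gave 5 HoxA regions, 8 HoxB at any size, and 2 HoxA and 1 HoxB between control cell types. Spread from all 10 libraries gave 1 HoxB region, 8 at any size and 1 HoxA region in GMP. The 4 libraries with few Y positions, chosen after seeing the data, gave 1 HoxB region and 2 at any size. The intermediate-level prior gave 1 HoxA region in GMP, 1 Hox gene window in LSK, 1 in GMP and 19 C positions. Windows of 500 bp gave 1 Hox gene window in LSK, and Hoxb2 turned to 0.58 points (adjusted p = 0.602, against -3.73 to 0.58 points over its alternatives). The cause was not tested.

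Leaving out 1 library at a time gave 0 to 3 HoxA and 0 to 3 HoxB regions in LSK, 4 to 9 and 1 to 10 at any size, 0 to 1 HoxA regions between control cell types, 0 to 1 and 0 to 1 at any size, and 1 to 2 gene windows in LSK. The HoxA minus HoxB difference is the KO minus CTRL difference in mean level of HoxA less that of HoxB, averaged over LSK and GMP. Over positions common to the 10 assigned libraries it was -0.91 points, with -1.88 in LSK and 0.06 in GMP. It ranged from -1.07 to -0.68 points as single libraries were left out. The cluster differences kept their sign, at -5.12 to -4.15 (HoxA) and -2.97 to -2.44 (HoxB) points in LSK and -2.84 to -1.36 and -2.54 to -1.62 in GMP. No paired analysis was possible because the groups share no replicate numbers. With 2 GMP libraries a genotype and 1.92 prior degrees of freedom, GMP differences are the least certain.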
